A study of Rattus norvegicus with 192 samples.

Results

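The 9 genes described here encode core parts of the machinery that copies and divides a cell: Ccnd1, Pcna, Mcm2, Mcm5, Ccna2, Cdk1, Ccnb1, Top2a and Mki67. They were taken from a whole-transcriptome probe panel of 21143 gene symbols by symbol alone, and each had 1 probe. The question was how their RNA stood in rat liver cells exposed to 29 chemicals over a range of doses. The assay was TempO-Seq, in which pairs of short detector oligos are ligated on their target RNA, amplified and counted, so a value is the count of 1 probe site, given here as CPM, the count scaled to the total of its library. CPM of different probes cannot be compared between genes.

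The cells were primary hepatocytes from male rats, plated on collagen and exposed for 24 h. The libraries of 29 chemicals covered 6 doses each, with 1 library per dose. Of these chemicals 16 were taken up to 100 µM and 13 up to 33.3 µM, in steps of 2.86- to 3.08-fold. A further 9 libraries came from 9 reference chemicals at 1 dose each: oltipraz at 30 µM, WY-14,643 and Pregnenolone 16alpha carbinonitrile at 15 µM, sulforaphane, testosterone, 17beta-estradiol and dexamethasone at 10 µM, and TCPOBOP and GW 4046 at 1.5 µM. The last 9 libraries were cells given the solvent DMSO, which was 0.1% of the medium, 3 on each of 3 plates. The plates held 90, 90 and 12 libraries, with 6 reference chemicals on plate 2 and 3 on plate 3. DMSO replicate 1 was left out of the comparisons below by the rule that defined them, so DMSO means replicates 2 to 9 unless all 9 are named. It stood apart from the other 8 in these genes, with 62.9 CPM of Mcm2 against 27.8 to 38.7 CPM. Whether wells stem from separate cultures or rats is not in the labels, so each p-value reflects the spread among these wells and that spread may be technical.

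A cell that enters division first raises D-type cyclins in G1. It then loads and fires replication forks in S phase, and finally builds up the cyclin and kinase pairs that drive mitosis. Adult hepatocytes in the liver are mostly quiescent and can re-enter the cycle after loss of tissue or under mitogens, while hepatocytes in culture divide little without growth factors. Many S phase genes are switched by E2F factors at E2F sites. Many mitotic genes are switched through a pair of elements, the cell cycle homology region (CHR) and the CCAAT box bound by NF-Y.

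Promoter windows were searched for these motifs. Windows from 250 bases before to 50 bases after a listed start were held for 7 of the 9 genes in the RefSeq table for GRCr8, and not for Ccna2 and Ccnd1. The E2F motifs searched were TTTCGCGC, TTTGGCGC, TTTCCCGC and TTTGCCGC, the CHR motifs TTTGAA and TTCGAA, and the third CCAAT, all on both strands. An E2F motif lay in 3 of the 7 windows (Mcm2, Mcm5 and Cdk1) and in 2.14% of 33469 rat promoters. A CHR motif lay in 4 of the 7 (Mcm2, Cdk1, Top2a and Mki67), against 19.7% of all promoters. A CCAAT box lay in 6 of the 7, every one except Mcm2, against 37.5%. The motifs did not divide the windows by kind of gene. Mcm2 held CHR matches and Cdk1 an E2F match, while Pcna held no E2F match and Ccnb1 no CHR match. Mcm5, a replication gene, and Top2a, a gene of late S phase and mitosis, are printed because both were at their highest in the same library and their 2 windows hold different motifs. Both read 5′ to 3′ on the strand of the gene. Capitals mark the motifs, with CCAAT read as ATTGG and TTTGAA as TTCAAA on the other strand. In Mcm5 a pair of E2F matches overlaps at 213 to 202 bases before the start.
Mcm5, chr19:13488563-13488862, plus strand: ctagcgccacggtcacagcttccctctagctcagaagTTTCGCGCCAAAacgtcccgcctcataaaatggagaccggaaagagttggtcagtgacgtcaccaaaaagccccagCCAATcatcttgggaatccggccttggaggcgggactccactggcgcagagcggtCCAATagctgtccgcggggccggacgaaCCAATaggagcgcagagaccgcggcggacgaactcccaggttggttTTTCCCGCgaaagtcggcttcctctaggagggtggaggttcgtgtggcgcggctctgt
Top2a, chr10:84473044-84473343, minus strand: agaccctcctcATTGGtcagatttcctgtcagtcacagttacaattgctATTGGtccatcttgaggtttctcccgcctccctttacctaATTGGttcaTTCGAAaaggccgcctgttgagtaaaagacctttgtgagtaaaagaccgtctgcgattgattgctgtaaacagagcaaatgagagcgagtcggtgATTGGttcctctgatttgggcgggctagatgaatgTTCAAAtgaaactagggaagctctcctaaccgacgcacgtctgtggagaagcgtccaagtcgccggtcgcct
Mcm5 has 3 E2F matches and 3 CCAAT boxes and no CHR match, whereas Top2a has 2 CHR matches and 4 CCAAT boxes and no E2F match. The window listed for Mki67 lies with all its 300 bases inside the annotated gene and is not shown. The listed starts of Mcm2 and Cdk1 also lie inside the annotated gene, by 111 and 41 bases. The windows of Mki67, Mcm2 and Cdk1 are nonetheless part of the counts above. A match of letters is a description of the window and says nothing of which factor was bound.

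Facts of the whole set touch every value below. Libraries held 582071 to 11249014 counts with a median of 5745085, and DMSO libraries 2876741 to 8513985. A probe was tested if 6 or more libraries reached 1.74 CPM, the value of 10 counts in a library of median size. That left 11055 probes, among them 7 of the 9 genes, and Cdk1 and Ccnb1 did not pass. Hepatocyte markers were present throughout, with 8 of 8 passing and median levels of 4981 CPM for Alb, 3149 CPM for Apoa1 and 15710 CPM for Ttr. In DMSO Ttr spanned 13080 to 33880 CPM, against 4618 to 5210 CPM for Alb. The sums of the 8 hepatocyte markers given below thus rest largely on Ttr and are no measure of hepatocyte content. Of 7 macrophage markers 5 passed, and all 7 together summed to 21.2 to 140.3 CPM in dose libraries, against 34.8 to 52.9 CPM in DMSO. Of 6 endothelial markers 4 passed, and all 6 together summed to 5.98 to 29.1 CPM in dose libraries, against 9.39 to 17.7 CPM in DMSO. Of 7 mesenchymal markers measured 2 passed, and Col1a1, Des and Pdgfrb had a median of 0. All 7 together summed to 2.48 to 17.2 CPM in dose libraries, against 4.01 to 7.995 CPM in DMSO. Of 4 bile duct markers only Epcam passed, with a median of 21.9 CPM, while Krt7 and Krt19 had a median of 0. Which cells the cell cycle RNA came from was not tested, and in such bulk RNA more cells of a type cannot be told apart from more RNA per cell.

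Several of the 9 probes had low counts in these cultures, which does not rank the RNA of the genes, as probes cannot be compared. A gene is called near zero here when its median over all libraries lay below the limit of 1.74 CPM. By that measure Cdk1, Ccnb1 and Top2a were near zero, with medians of 0.392, 0 and 1.07 CPM. The other medians were 2.48 CPM for Ccna2, 4.87 CPM for Mcm5, 4.91 CPM for Ccnd1, 9.04 CPM for Mki67, 18.4 CPM for Pcna and 35.2 CPM for Mcm2.

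Ccnd1 (cyclin D1, the G1 cyclin that activates Cdk4 and Cdk6) had a lowest, median and highest value of 0.815, 4.87 and 20.8 CPM in 183 treated libraries, against 4.54, 7.34 and 10.2 CPM in DMSO. Pcna, the sliding clamp that holds DNA polymerases on their template, had 3.16, 18.2 and 175.2 CPM in treated libraries, against 11.1, 23.1 and 27.5 CPM in DMSO. Mcm2, a subunit of the replicative helicase, had 3.44, 35.03 and 85.2 CPM in treated libraries, against 27.8, 34.5 and 38.7 CPM in DMSO. The treated libraries thus spread on both sides of a narrow DMSO range for Mcm2, while the treated median of Ccnd1 lay inside the DMSO range near its lower end. Mcm5, another helicase subunit, had 0.868, 4.85 and 18.2 CPM in treated libraries, against 3.03, 5.61 and 6.81 CPM in DMSO. Ccna2 (cyclin A2, which serves S phase and the entry to mitosis) had 0, 2.40 and 11.9 CPM in treated libraries, against 2.47, 3.23 and 3.85 CPM in DMSO. Mki67, which encodes the Ki-67 protein used to mark proliferating cells, had 0, 8.79 and 40.7 CPM in treated libraries, against 7.38, 10.3 and 13.6 CPM in DMSO. For Ccna2 the median treated library lay below the lowest DMSO library.

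The probes of Cdk1, Ccnb1 and Top2a were close to the limit of detection. Cdk1, the kinase that drives mitosis, had a median of 0.387 CPM in treated libraries and 0.700 CPM in DMSO, and 36 libraries had no count. Ccnb1, the cyclin B1 partner of Cdk1, had no count in 170 libraries, and its highest treated value was 0.351 CPM, a single count, against a highest value of 0.251 CPM in DMSO. No direction was read from Ccnb1. Top2a, the topoisomerase that untangles replicated chromosomes, had 0, 1.05 and 9.11 CPM in treated libraries, against 0.877, 1.27 and 2.78 CPM in DMSO. It passed the filter although its median lay below the limit, and 11 libraries had no count. With 0 counts a level of up to 3 counts cannot be told from none, which is counting error only.

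Counted against the range of the 8 DMSO libraries, several genes were more often low than an average probe. Over all tested probes 11.8% of treated values lay below the DMSO range and 11.7% above it. Ccna2 lay below in 94 of 183 treated libraries and above in 31, Ccnd1 below in 79 and above in 7, Top2a below in 76 and above in 15, and Mki67 below in 67 and above in 35. Mcm2 went the other way, below in 22 and above in 65, while Mcm5 was below in 39 and above in 39 and Pcna below in 20 and above in 13. These counts share 1 set of 8 DMSO libraries, so they are a description.

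Much of this low count was already present at the bottom of the dose range. At the lowest dose of each of the 29 chemicals Ccna2 lay below the DMSO range in 18 libraries and above it in 2, Top2a below in 17 and above in 1, and Ccnd1 below in 15 and above in 0. Over all tested probes the shares at the lowest doses were 9.05% below and 8.97% above. Set as 1 group against DMSO, the lowest doses had a log2 change of -0.56 ± 0.19 for Ccnd1, -0.65 ± 0.38 for Top2a, -0.38 ± 0.24 for Ccna2, -0.27 ± 0.13 for Pcna and 0.04 ± 0.09 for Mcm2 (edgeR, SE). None of the 7 genes was called, with a smallest adjusted p of 0.292 for Ccnd1, and 0% of the 11055 probes were called higher or lower by edgeR's quasi-likelihood test. At an unadjusted p under 0.05 there were 1078 probes, with Ccnd1 and Pcna among them. DESeq2 called 23 probes and 0 of the 4 genes to which it gave an adjusted p. With all 9 DMSO libraries 1010 probes and 1 of the genes were called, which was Mki67 at -0.59 with an adjusted p of 0.0454.

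By dose, the median of Ccna2 lay below the DMSO range at 0.4, 33.3 and 100 µM and inside it at the other 4 doses. Ccna2 values lay below that range in 6 of 13 libraries at 0.14 µM, 19 of 29 at 0.4 µM, 13 of 29 at 1.2 µM, 12 of 29 at 3.7 µM, 9 of 29 at 11.1 µM, 19 of 29 at 33.3 µM and 14 of 16 at 100 µM. The Ccna2 medians over these 7 doses were 2.71, 1.90, 2.55, 2.74, 3.004, 2.09 and 1.74 CPM, against 3.23 CPM in DMSO. Mki67 had medians of 11.2, 7.89, 8.885, 10.9, 11.2, 6.397 and 6.63 CPM over the same doses, against 10.3 CPM in DMSO, so only its medians at 33.3 and 100 µM lay below the lowest DMSO library. Ccnd1 lay below the DMSO range in 16 of 29 libraries at 0.4 µM, 10 of 29 at 11.1 µM and 8 of 16 at 100 µM. The median of Mcm2 stayed between 33.4 and 37.8 CPM over the 7 doses. The chemicals with a 0.14 µM library were all on plate 1 and those with a 100 µM library mostly on plate 2 (13 of 16), so dose and plate cannot be told apart at the 2 ends of the range.

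**Figure D1:**
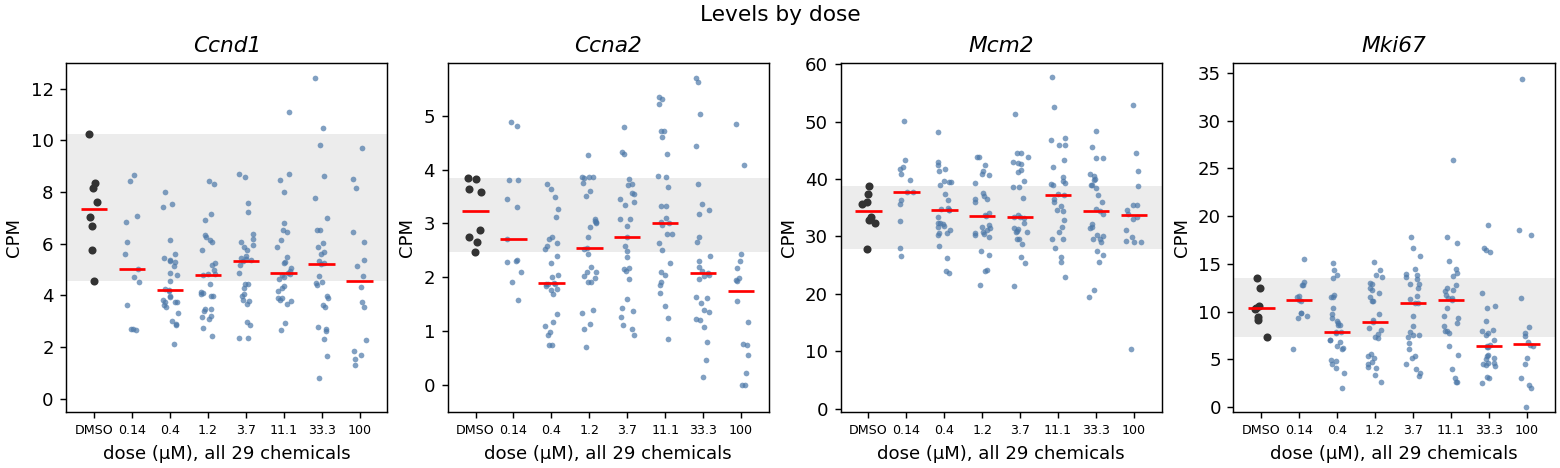
Levels of Ccnd1, Ccna2, Mcm2 and Mki67 in CPM against dose in µM, with 1 point per library, a red bar at the median of each dose and a grey band over the range of the 8 DMSO libraries. Most of the Ccna2 points lie under the band at 0.4, 33.3 and 100 µM, whereas the Mcm2 medians stay inside or near it.

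The dose trend of each gene with each chemical was then fitted from the 6 dose libraries and DMSO. A trend is given as the fitted log2 change at 33.3 µM against DMSO with its SE, and is called at an adjusted p under 0.05 over all 11055 probes of that chemical. Of 203 trends of the 7 genes 5 were called, 2 higher and 3 lower, which is 2.46% of them, against 1.66% of all trends of all probes with the 29 chemicals. Asked instead in 1 fit whether a gene had any trend with any chemical, all 7 were called, with adjusted p of 8.46e-09 for Mki67 and 5.83e-08 for Mcm5, but so were 67.5% of all probes.

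**Figure D2:**
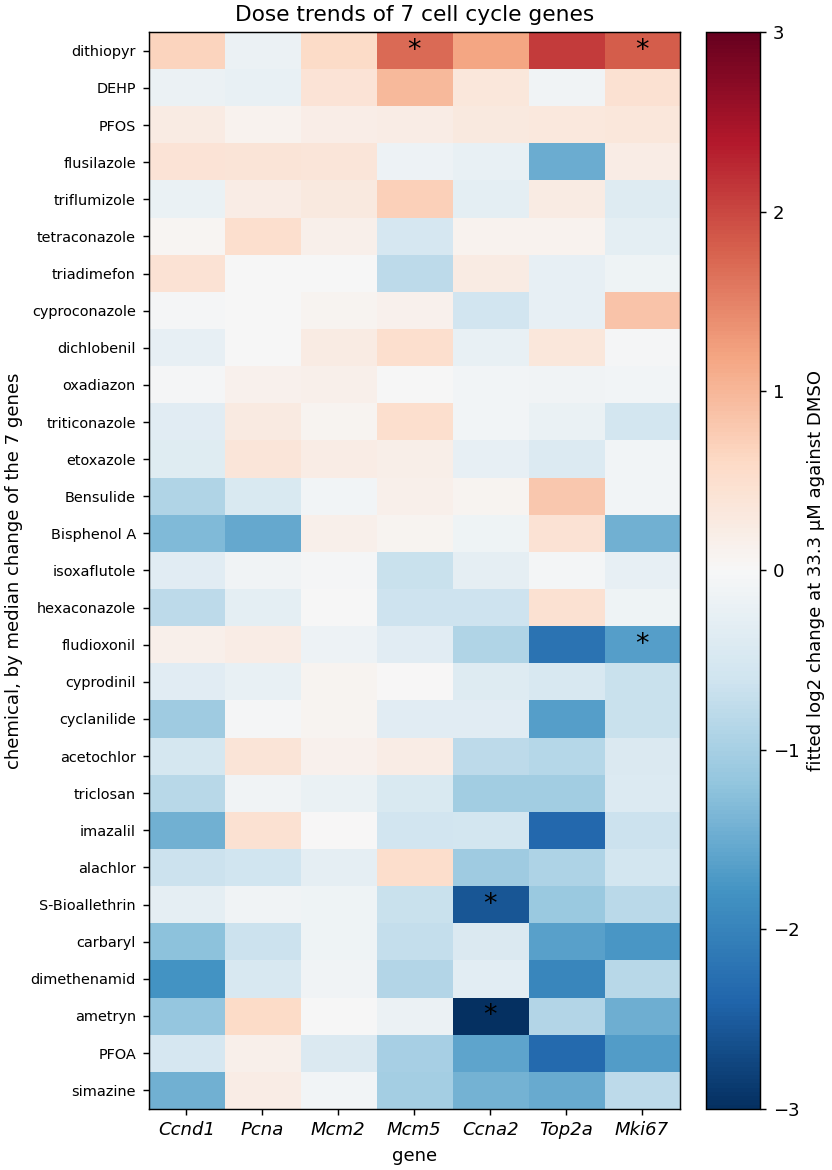
Fitted log2 change at 33.3 µM against DMSO for 7 cell cycle genes (columns) and 29 chemicals (rows), with red for higher, blue for lower and a star at an adjusted p under 0.05 (edgeR). The 5 stars are Mcm5 and Mki67 with dithiopyr in red and Ccna2 with ametryn and S-Bioallethrin and Mki67 with fludioxonil in blue.

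Dithiopyr, a pyridine herbicide that disrupts microtubules in plants, had the highest median trend of the 7 genes, 1.19, against -0.01 over all probes. Mki67 had 6.08, 3.58, 3.38, 16.6, 25.9 and 19.0 CPM at 0.14, 0.4, 1.2, 3.7, 11.1 and 33.3 µM, against 7.38 to 13.6 CPM in DMSO. The 3 lower doses were below every DMSO library and the 3 upper doses above every one. The fitted change was 1.81 ± 0.50 with an adjusted p of 0.0284 (edgeR). Mcm5 had 2.61, 1.79, 1.69, 6.79, 10.5 and 10.8 CPM over the same doses, against 3.03 to 6.81 CPM in DMSO. It too was below DMSO at the 3 lower doses and above it at the 2 upper ones, with a change of 1.69 ± 0.52 and an adjusted p of 0.0442. Dithiopyr as a whole moved many probes, with 6.25% called higher, so 2 of 7 is to be read against that share.

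The other 5 genes were not called with dithiopyr, and Pcna had a negative change of -0.18 ± 0.44. Top2a had 0.348, 0, 0.703, 2.86, 4.06 and 1.59 CPM over the doses, with a fitted change of 2.09 ± 0.89 and an adjusted p of 0.130. Ccna2 had 1.91, 0.746, 0.703, 3.58, 5.36 and 4.44 CPM with a change of 1.19. Ccnd1 had 4.69, 3.73, 4.08, 5.36, 11.1 and 10.5 CPM with a change of 0.67. At 11.1 µM all 7 genes lay above their DMSO range, and at 1.2 µM 6 of 7 lay below it, all but Pcna. Over the libraries of all 29 chemicals, 11.3% of values of all tested probes lay above at 11.1 µM and 10.05% below at 1.2 µM. The shares in the dithiopyr libraries alone were not counted, so these counts are a description. Pcna alone lay below its DMSO range at 33.3 µM, with 10.1 CPM, after 30.1 CPM at 11.1 µM. Cdk1 reached 2.59 CPM, which is 14 counts, at 11.1 µM and had 0 counts at 0.14, 0.4 and 33.3 µM.

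The replication and mitosis lists also held mostly positive changes with dithiopyr. Of 67 other cell cycle genes tested 7 were called, each higher, where 6.25% of all probes were called higher. The counts of calls in this paragraph are to be read against that share. Of the 67 genes 51 had a positive change, and the median of the 67 was 0.54, against -0.01 over all probes. Among 25 replication genes 5 were called and 20 were positive with a median of 0.64, and among 23 mitosis genes 1 was called and 22 were positive with a median of 0.73. Uhrf1, which helps to copy DNA methylation at the fork, rose by 2.02 ± 0.64 (adjusted p = 0.0497). The helicase subunits Mcm6 and Mcm3 rose by 1.94 ± 0.48 (adjusted p = 0.0158) and 1.597 ± 0.38 (adjusted p = 0.0120). Smaller rises were called for the spindle checkpoint gene Mad2l1 (0.84 ± 0.23, adjusted p = 0.0270), the G1 kinase Cdk4 (0.76 ± 0.19, adjusted p = 0.0149) and the ribonucleotide reductase subunit Rrm1 (0.72 ± 0.21, adjusted p = 0.0355). The 10 transcription factors and pocket proteins had a median of -0.04, with 4 positive.

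The dithiopyr calls rested on single libraries and on the model. In 1 model fitted over all chemicals at once neither gene was called, with a change of 0.84 ± 0.38 for Mcm5 (adjusted p = 0.141) and 0.98 ± 0.38 for Mki67 (adjusted p = 0.0707). Both calls also ended with no plate term (adjusted p of 0.106 for Mcm5 and 0.0637 for Mki67) and with doses scored by rank (0.204 and 0.133). With all 9 DMSO libraries (0.0914) or those of the same plate alone (0.0578) Mcm5 was not called. Mcm5 was no longer called without the library at 33.3 µM (adjusted p = 0.359), 11.1 µM (0.113), 3.7 µM (0.0578), 0.4 µM (0.0700) or 0.14 µM (0.0849), nor without DMSO replicate 3 (0.0506), 4 (0.0559), 6 (0.0509) or 8 (0.0580). Mki67 was no longer called without 33.3 µM (adjusted p = 0.167), 11.1 µM (0.0973) or 0.14 µM (0.0581), and with all 9 DMSO libraries its change was 0.60 with an adjusted p of 0.664. Over the 6 dithiopyr libraries alone, with no DMSO, Mki67 rose with dose by 2.63 ± 0.66 (adjusted p = 0.0292), Mcm5 by 2.72 ± 0.57 (adjusted p = 0.0151) and Ccnd1 by 1.52 ± 0.41 (adjusted p = 0.0373), where 12.6% of all probes were called in either direction. At 33.3 µM the library was shallower, at 3154817 counts, and the hepatocyte markers summed to 13860 CPM, against 25060 to 46290 CPM in DMSO. The macrophage markers summed to 32.0 to 48.2 CPM over the 6 doses, against 34.8 to 52.9 CPM in DMSO. Their part in the result was not tested.

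Ccna2 fell with S-Bioallethrin, a pyrethroid insecticide. It had 1.87, 1.33, 0.922, 1.24, 0.463 and 0.213 CPM at 0.4, 1.2, 3.7, 11.1, 33.3 and 100 µM, against 2.47 to 3.85 CPM in DMSO. Every dose lay below every DMSO library, and the library at 100 µM held 1 count. The fitted change was -2.56 ± 0.46 with an adjusted p of 0.00586, where 1.49% of probes were called lower. The call held in 25 of 26 other settings and ended only when the dose libraries were fitted without DMSO (-1.91, adjusted p = 0.121). All 7 genes had a negative change with S-Bioallethrin, with a median of -0.68 against -0.02 over all probes. Among 23 mitosis genes 3 were positive and the median was -0.45, whereas 15 of 25 replication genes were positive with a median of 0.06. Over all 67 other cell cycle genes 26 were positive, with a median of -0.12. The 1 called gene among them was Cdc25a, the phosphatase that activates Cdk2, which rose by 0.98 ± 0.19 (adjusted p = 0.00891), where 1.44% of probes were called higher.

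Ccna2 also fell with ametryn, a triazine herbicide. It had 4.81, 2.64, 1.92, 2.74, 0.846 and 0.155 CPM at 0.14, 0.4, 1.2, 3.7, 11.1 and 33.3 µM, against 2.47 to 3.85 CPM in DMSO. The lowest dose was above every DMSO library and those at 1.2, 11.1 and 33.3 µM were below every one, with 1 count at 33.3 µM. The change was -3.07 ± 0.62 with an adjusted p of 0.0390, where 0.498% of probes were called lower. The call ended without the library at 33.3 µM (-2.24, adjusted p = 0.481), 11.1 µM (0.0933), 0.4 µM (0.0637) or 0.14 µM (0.0873). It ended as well without DMSO replicate 2 (0.0993), 3 (0.0784), 4 (0.0543), 6 (0.0618), 7 (0.0547), 8 (0.0638) or 9 (0.0609). Doses scored by rank (adjusted p = 0.111), all 9 DMSO libraries (0.142), the DMSO libraries of the same plate (0.177) and the dose libraries alone (0.9997) also ended it. Pcna went the other way at the top dose, with 37.4 CPM at 33.3 µM against 11.1 to 27.5 CPM in DMSO, and its trend of 0.58 was not called.

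Mki67 fell with fludioxonil, a phenylpyrrole fungicide. It had 9.35, 8.11, 5.32, 2.65, 4.30 and 3.01 CPM at 0.4, 1.2, 3.7, 11.1, 33.3 and 100 µM, against 7.38 to 13.6 CPM in DMSO. The 4 upper doses lay below every DMSO library and the 2 lower ones inside the range. The change was -1.65 ± 0.27 with an adjusted p of 0.0285, and only 3 probes, 0.0271%, were called lower with this chemical. The call ended when any 1 of the 8 DMSO libraries was left out (adjusted p = 0.0590 without replicate 2, 0.0588 without 3, 0.0813 without 4, 0.0710 without 5, 0.0856 without 6, 0.0565 without 7, 0.0592 without 8 and 0.0568 without 9). It ended as well without the library at 100 µM (0.581) or 3.7 µM (0.0549), in the model over all chemicals (0.0692), with the DMSO libraries of the same plate (0.257), with all 9 DMSO libraries (0.752) and with the dose libraries alone (0.798). Top2a had 0 counts with fludioxonil at 0.4 and 100 µM and Cdk1 at 33.3 and 100 µM. The libraries at 1.2 and 11.1 µM scored 0.648 and 0.690 on a library score that sets DMSO replicate 5 at 1, and their hepatocyte markers summed to 46040 and 43580 CPM, against 25060 to 46290 CPM in DMSO; their part in the result was not tested.

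**Figure D3:**
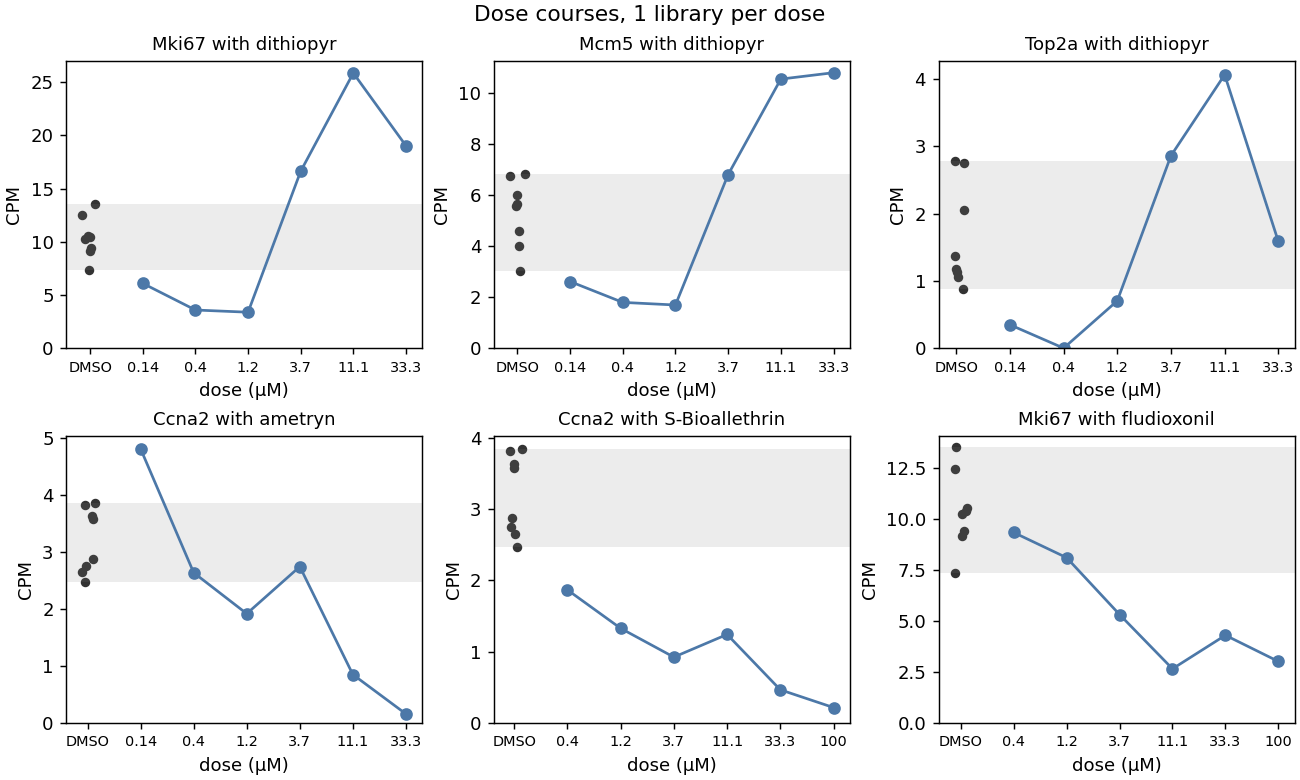
CPM against dose in µM for Mki67, Mcm5 and Top2a with dithiopyr, Ccna2 with ametryn, Ccna2 with S-Bioallethrin and Mki67 with fludioxonil, with 1 point per library and a grey band over the range of the 8 DMSO libraries. With dithiopyr the points lie below the band up to 1.2 µM, at 3.7 µM above it for Mki67 and Top2a and inside it for Mcm5, and at 11.1 µM above it for all 3 genes, and in the other 3 panels the points at the top 2 doses lie below it.

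Changes of like size with other chemicals were not called in the fits of single chemicals, though some were under other settings. Mki67 had 4.52, 4.76, 3.196, 4.0, 3.18 and 2.33 CPM with the carbamate insecticide carbaryl at 0.4 to 100 µM, all below the DMSO range, and a change of -1.75 ± 0.36 with an adjusted p of 0.0752. Ccnd1 had 3.73, 4.82, 2.86, 3.80, 3.97 and 2.29 CPM with simazine, a triazine, at 0.4 to 100 µM, with 5 of 6 below the range of 4.54 to 10.2 CPM in DMSO, and a change of -1.45 ± 0.30 with an adjusted p of 0.0636. Simazine was run at its 3 upper doses on plate 1 and at its 3 lower doses on plate 2. Ccnd1 with dimethenamid, a chloroacetamide herbicide, had 3.31, 3.48, 2.37, 2.95, 0.815 and 1.54 CPM at 0.4 to 100 µM, and a change of -1.79 ± 0.41 with an adjusted p of 0.689. Every one of these dimethenamid values lay below the DMSO range. DESeq2 called Mki67 with carbaryl (adjusted p = 0.00447) and Ccnd1 with simazine (adjusted p = 0.00311), and both were also called with doses scored by rank (0.0153 and 0.0203) and with the library score as a covariate (0.0191 and 0.00409). Ccnd1 with dimethenamid was called with no plate term (adjusted p = 0.0415).

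Perfluorooctanoic acid (PFOA) and perfluorooctanesulfonate (PFOS), perfluorinated acids with a carboxylate and a sulfonate head group, differed in sign for these genes except Pcna. With PFOA 6 of 7 changes were negative, with a median of -1.001, and with PFOS 7 of 7 were positive, with a median of 0.24. The PFOS changes were small, from 0.11 to 0.34, and none was called (edgeR, smallest adjusted p = 0.844 for Mcm2). Mki67 had 4.03, 7.32, 3.93, 6.397, 4.64 and 0 CPM with PFOA at 0.4 to 100 µM and 11.7, 14.3, 7.84, 10.4, 16.3 and 18.5 CPM with PFOS at the same doses, against 7.38 to 13.6 CPM in DMSO. Its change was -1.68 ± 0.50 with PFOA (adjusted p = 0.0773). DESeq2 called it (adjusted p = 0.00877), as did the model over all chemicals (0.0142), the fit with no plate term (0.0247) and that with the library score as a covariate (0.0261). Over the PFOA dose libraries alone it was -1.08 and was not called (edgeR, adjusted p = 0.599). The difference between the 2 chemicals was not tested. The PFOA library at 100 µM had 2304919 counts and 0 counts of Ccna2, Cdk1, Top2a and Mki67, and it scored 1.78 on the library score. Its part in these changes was not tested. Cdc25a rose with PFOA by 1.70 ± 0.29 (adjusted p = 0.00657). It was the 1 called gene of 67 other cell cycle genes, where 2.58% of probes were called higher.

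Taken by gene over the 29 chemicals, the sign of the trend fitted with DMSO was mostly negative for 4 of the 7 genes. It was negative with 24 chemicals for Mki67, 23 for Ccna2, 23 for Ccnd1 and 21 for Top2a, against 16 for Pcna, 16 for Mcm5 and 13 for Mcm2. Over all probes 51.7% of trends were negative. The most negative trends were -3.07 for Ccna2 with ametryn, -2.35 for Top2a with imazalil, -1.79 for Ccnd1 with dimethenamid, -1.75 for Mki67 with carbaryl and -1.53 for Pcna with Bisphenol A. The highest were with dithiopyr for 6 of the genes and with ametryn for Pcna. The trends share their DMSO libraries, so these counts are not independent of each other. A gene already below DMSO at the lowest doses can have a negative sign in such a fit without falling over the doses. Fitted over the dose libraries alone, with no DMSO, Mki67 was still negative with most chemicals. For Ccnd1, Ccna2 and Top2a the negative and positive signs were then close to even.

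Pcna with Bisphenol A had no steady course. It had 23.2, 7.71, 21.9, 7.13, 3.16 and 11.3 CPM at 0.14 to 33.3 µM, against 11.1 to 27.5 CPM in DMSO. Its lowest value of all libraries was at 11.1 µM, with 19 counts. The trend of -1.53 ± 0.61 was not called (adjusted p = 0.451). It was called in the model over all chemicals (-1.30, adjusted p = 0.0183) and without the highest dose (-3.71, adjusted p = 0.0107). Mcm5 with DEHP, a phthalate plasticiser, had 3.61, 7.19, 3.80, 4.59, 10.9 and 15.8 CPM at 0.4 to 100 µM, against 3.03 to 6.81 CPM in DMSO. The 2 upper doses were above every DMSO library, and the change of 0.97 ± 0.31 was not called (adjusted p = 0.288). It was called in the model over all chemicals (1.34, adjusted p = 0.00105) and with the library score as a covariate (0.997, adjusted p = 0.0445).

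The other lists held calls with chemicals that called none of the 7 genes when each chemical was fitted on its own. Of 67 other cell cycle genes 4 were called higher and 1 lower with imazalil, and 4 higher and 1 lower with cyproconazole. With triticonazole 1 of the 67 was called, higher. These counts are to be read against the shares of all probes given below, and no response particular to cell cycle genes is read from them. In the model over all chemicals Mki67 and Top2a were called lower with imazalil (adjusted p = 0.0381 and 0.0438), Mki67 higher with cyproconazole (0.0104) and Mcm5 higher with triticonazole (0.000825). With no plate term Ccnd1 and Top2a were called lower with imazalil (adjusted p = 0.0395 and 0.0497). With imazalil, an azole fungicide, the replication licensing inhibitor Gmnn rose by 1.84 ± 0.55, the origin recognition subunit Orc2 by 1.79 ± 0.34, the pocket protein Rb1 by 1.12 ± 0.34 and Mad2l1 by 1.11 ± 0.32, where 7.68% of probes were called higher and 2.87% lower. At 33.3 µM imazalil the macrophage markers summed to 140.3 CPM, against 34.8 to 52.9 CPM in DMSO, and hepatocyte markers to 14140 CPM, against 25060 to 46290 CPM. Their part in these changes was not tested. With cyproconazole, a triazole fungicide, Lin54, a subunit of the complex that switches mitotic genes, rose by 1.58 ± 0.40, the mitosis-delaying kinase Wee1 by 1.18 ± 0.25, Rb1 by 1.15 ± 0.28 and the transcription factor Myc by 1.08 ± 0.24, where 5.83% of probes were called higher and 3.11% lower. The cyproconazole library at 100 µM held 1340300 counts. With triticonazole, also a triazole, the G1 kinase Cdk6 rose by 0.97 ± 0.19, where 1.04% of probes were called higher. For these genes adjusted p (edgeR) ran between 0.0120 and 0.0465 for imazalil and between 0.0130 and 0.0250 for cyproconazole, and it was 0.0236 for triticonazole.

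The 9 reference chemicals held the highest values of most genes. Each had 1 library, tested against DMSO on the assumption that it varies as DMSO does. Of 63 tests of the 7 genes 5 were called, 4 higher and 1 lower, which is 7.94%, against 3.66% of all tests of all probes. GW 4046 had the highest treated value of Cdk1, at 2.80 CPM (8 counts), and, among tested probes, of 5 of the 7 genes, 18 of 67 other cell cycle genes and 2.27% of all probes.

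With GW 4046 Mcm2 was at 85.2 CPM, against 38.7, 27.8 and 33.4 CPM in the DMSO libraries of the same plate. Mki67 was at 40.7 CPM with GW 4046, against 12.5, 13.6 and 10.5 CPM in those DMSO libraries. Mcm2 rose by 1.25 ± 0.20 (adjusted p = 0.0258) and Mki67 by 1.64 ± 0.28 (adjusted p = 0.0306), where 0.344% of probes were called higher. Mcm5 was at 18.2 CPM (1.50 ± 0.41, adjusted p = 0.145), Ccna2 at 11.9 CPM (1.68 ± 0.39, adjusted p = 0.0937) and Top2a at 9.11 CPM (1.75 ± 0.42, adjusted p = 0.102). All 3 lay above every DMSO library without being called. The GW 4046 library held 2852617 counts, against 2876741 to 8513985 in DMSO libraries, with 34 counts of Ccna2 and 26 of Top2a. The part of depth in these values was not tested. Among the other lists Mcm3 was called at 1.52 ± 0.28 (adjusted p = 0.0419), with 22 of 23 mitosis genes positive at a median of 1.34 and 19 of 25 replication genes positive at a median of 0.92, against -0.05 over all probes. Mcm2 was no longer called without DMSO replicate 2 (adjusted p = 0.0674), 3 (0.0659), 4 (0.0618), 6 (0.0611), 7 (0.0524), 8 (0.0820) or 9 (0.0571). Mki67 was no longer called without DMSO replicate 2 (adjusted p = 0.0799), 3 (0.0786), 4 (0.102), 6 (0.0743), 7 (0.0595), 8 (0.0854) or 9 (0.0571), and with all 9 DMSO libraries neither was (adjusted p = 0.9999).

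Pregnenolone 16alpha carbinonitrile, a steroid that activates the pregnane X receptor in rodents, had the highest Ccnd1 and the next highest Mki67. Mki67 was at 40.5 CPM, against 12.5, 13.6 and 10.5 CPM in the DMSO libraries of the plate, and rose by 1.595 ± 0.27 (adjusted p = 0.0236), where 0.47% of probes were called higher. Ccnd1 was at 20.8 CPM, against 5.75, 8.34 and 6.68 CPM in those DMSO libraries, with a change of 1.46 ± 0.37 that was not called (adjusted p = 0.0896). Mcm2 was at 70.4 CPM, with a change of 0.94 ± 0.20 (adjusted p = 0.0540). DESeq2 called Ccnd1 and Mcm2 as well, with changes of 1.46 and 0.94. All 7 genes had a positive change, as had 22 of 23 mitosis genes with a median of 1.10. The Mki67 call ended without DMSO replicate 2 (adjusted p = 0.0599), 3 (0.0593), 4 (0.0883), 6 (0.0536), 7 (0.0517) or 8 (0.0674), and with all 9 DMSO libraries (0.863). Hepatocyte markers summed to 14070 CPM with Pregnenolone 16alpha carbinonitrile and 18100 CPM with GW 4046, against 25060 to 46290 CPM in DMSO, and their part in these results was not tested.

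Sulforaphane gave the shallowest library, with 582071 counts, and values unlike the rest. Pcna was at 175.2 CPM, which is 102 counts, against 19.5, 11.1 and 27.5 CPM in the DMSO libraries of the plate. It rose by 3.59 ± 0.33 (adjusted p = 0.000142), where 9.93% of probes were called higher, and the call held in all 12 other settings. Mcm2 was at 3.44 CPM, which is 2 counts, against 38.7, 27.8 and 33.4 CPM in those DMSO libraries, and fell by 2.86 ± 0.49 on the log2 scale (adjusted p = 0.00266), where 18.5% of probes were called lower and the median of all probes was -1.07. With all 9 DMSO libraries Mcm2 was not called (adjusted p = 0.117). Of 67 other cell cycle genes 4 were called higher and 8 lower. The mitotic kinase Aurka was at 22.3 CPM (13 counts), the checkpoint gene Bub1b at 24.1 CPM (14 counts) and the kinase Cdk2 at 29.2 CPM (17 counts), against means of 0.678, 0.574 and 3.55 CPM in the 3 DMSO libraries of the plate. Tyms and Mcm3 had 0 counts with sulforaphane and were at least 6.12- and 3.99-fold lower than the mean of those DMSO libraries, taking 3 counts in the sulforaphane library as the floor. The depth of this library cannot be told apart from the chemical.

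The remaining 6 reference chemicals had no called gene among the 7 in edgeR, with 9 of 42 tests at an unadjusted p under 0.05, while DESeq2 called Mki67 with dexamethasone (adjusted p = 0.00862). Mki67 was at 24.4 CPM with dexamethasone, a synthetic glucocorticoid (1.43 ± 0.27, adjusted p = 0.148), and at 24.5 CPM with WY-14,643, a PPARα agonist (0.92 ± 0.28, adjusted p = 0.341), against 7.38 to 13.6 CPM in DMSO. Mcm5 was at 13.1 CPM with dexamethasone (1.46 ± 0.37, adjusted p = 0.520), against 3.03 to 6.81 CPM in DMSO. Pcna was at 44.2 CPM with oltipraz, a dithiolethione (1.02 ± 0.34, adjusted p = 0.216), against 11.1 to 27.5 CPM in DMSO. Ccna2 was at 6.57 CPM with testosterone (1.14 ± 0.38, adjusted p = 0.747), against 2.47 to 3.85 CPM in DMSO. Each of these values lay above every DMSO library.

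**Figure D4:**
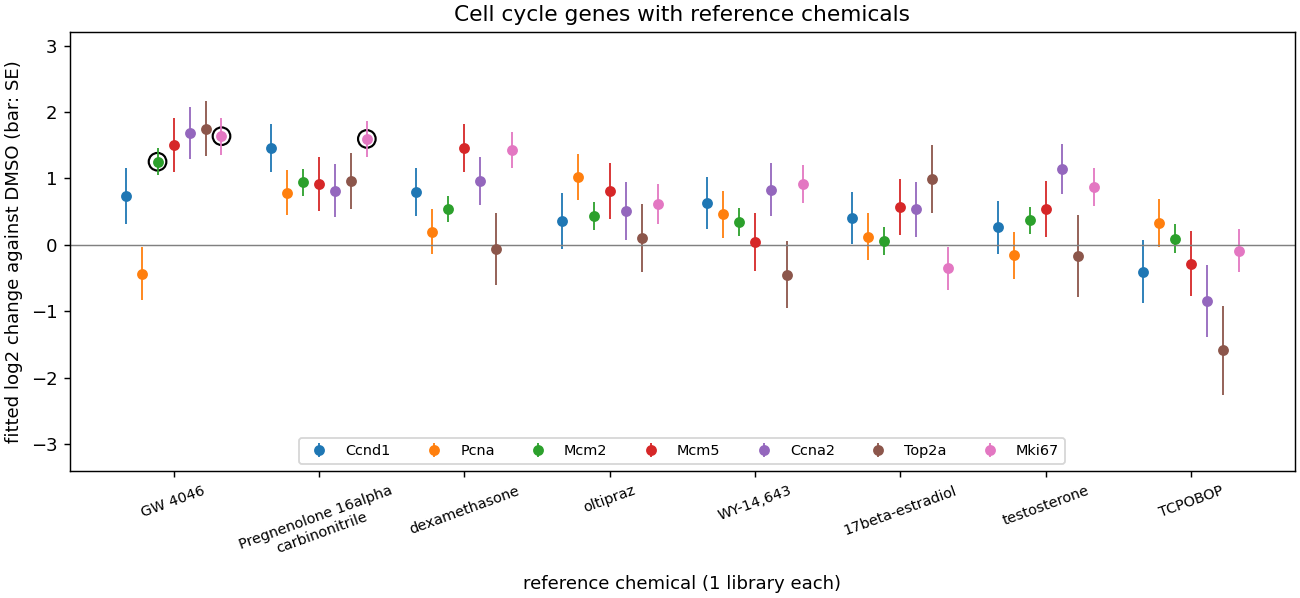
Log2 change against DMSO with its SE for 7 cell cycle genes in 8 reference chemicals with 1 library each, with black circles at an adjusted p under 0.05 (edgeR). Sulforaphane is left out of the plot for its depth, and the 3 circled points are Mcm2 and Mki67 with GW 4046 and Mki67 with Pregnenolone 16alpha carbinonitrile.

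Most of the genes varied together across libraries, Pcna apart. Over all libraries except DMSO replicate 1, which share controls, plates and depth, Pearson's r of log2 CPM was highest between Mcm5 and Mki67 (0.692) and between Ccna2 and Mki67 (0.673), and lowest between Pcna and Mcm2 (-0.059). Mcm5 was most like Mcm3, the neighbouring subunit in the helicase ring (r = 0.719), and Nelfb (r = 0.715). Mki67 was most like Rab32 (0.766), Basp1 (0.761) and LOC102549061 (0.721), and LOC102549061 was also the most like probe for Ccna2 (0.694) and Top2a (0.688). Pcna was most like Tmbim1 (0.814), Tmem184b (0.795) and Rnps1 (0.794), and Mcm2 like Gcc2 (0.801), Prr13 (0.799) and Sae1 (0.791). The nearest for Ccnd1 were Mki67 (0.582), Thbs1 (0.568) and Ppan (0.566). The likeness is given over libraries as a description, with no test.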

How the data were processed

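Male rat primary hepatocytes were profiled with TempO-Seq. The table deposited by the authors holds whole-number counts for 22253 probes, raw as far as the values show, and all columns were matched to libraries by name. Per the submitters' processing notes, alignment used Bowtie; version, genome build and probe sequences are not given in the sources used here. Amplified products were counted, so counts are not independent molecules. The labels describe a log2 dose step, but the printed doses were used.

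Probes with at least 1.741 CPM (10 counts at median depth) in at least 6 libraries were tested, 11055 in all. Tests were made in R 4.3.3 with edgeR 4.0.16 (quasi-likelihood F test, TMM scaling), a plate term, and Benjamini-Hochberg adjustment over all probes at 0.05. Dose trends used log2(1 + dose in µM) over 6 dose libraries and DMSO replicates 2 to 9. The 9 reference libraries were tested by an indicator, and 1 fit tested all 29 slopes. The steps were tested on simulated data. DESeq2 1.42.0, other scaling, filters, dose scores, control sets and 96 refits without 1 library were alternatives. The comparison of lowest doses and the fits of dose libraries alone were added after seeing the data. The library score places a library from the mean of DMSO replicates 4 and 6, at 0, to DMSO replicate 5, at 1, over probes with a mean log2 CPM above 4 other than the 9 genes. Members and lists were chosen with earlier results of these data known. Named were all 9 genes, up to 6 other list genes with the smallest adjusted p for any trend, at each end of the change up to 3 called list genes per chemical, and the 3 most like probes of each tested gene by Pearson's r (prior count 2). A gene of the list is included in the counts but is not reported here by name.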

Additional observations from a re-analysis of the deposited data

Results flagged for a closer look

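DMSO replicate 1 stood outside the main comparisons and differed from the other 8 DMSO libraries in these genes. It lay above their range for Mcm2, with 62.9 CPM against 27.8 to 38.7 CPM, and for Mki67, with 22.0 CPM against 7.38 to 13.6 CPM. Cdk1 was at 1.09 CPM against 0.189 to 1.04 CPM, and Ccnb1 was at 1.09 CPM against 0 to 0.251 CPM. It lay below their range for Ccnd1, with 2.0 CPM against 4.54 to 10.2 CPM, for Pcna, with 5.45 CPM against 11.1 to 27.5 CPM, and for Mcm5, with 0.545 CPM against 3.03 to 6.81 CPM. It had 0 counts of Top2a. What sets this library apart was not tested.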

How the results depend on the processing

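None of the 5 called trends and 5 called reference changes turned its direction under the alternatives run. Of 203 trends 5 were called, against 10 with DESeq2, 10 with no plate term, 11 with the library score as a covariate, 16 in 1 model over all chemicals, 1 with all 9 DMSO libraries, 2 with the DMSO libraries of the same plate, 2 without the highest dose and 3 with the dose libraries alone. The last of these was chosen after seeing the data. Of 63 reference tests 5 were called, against 8 with DESeq2, 10 with no plate term and 1 with all 9 DMSO libraries. At the lowest doses 0 of 7 genes were called, against 1 with all 9 DMSO libraries. The causes of these moves were not tested. With doses scored by rank 4 trends were called, but only 2 of the 5 were among them: Ccna2 with ametryn and Mcm5 and Mki67 with dithiopyr were lost, and Mki67 with carbaryl and Ccnd1 with simazine were gained. The counts stayed within 1.5 times under the other scaling, filter and dose score, without libraries that scored above 0.5, and for the test of any trend and the 3 genes near zero under every alternative run. Without any 1 DMSO library the test of any trend called 7 and the lowest doses 0. No paired analysis was possible because treated and DMSO libraries share no replicate numbers in the labels. Depth limits Ccnb1, Cdk1 and Top2a most, where 3 counts are the floor of a library.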

Other observations

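Some regulators of the cycle other than the 9 genes had their highest treated level with a chemical at 100 µM, and 6 of them are given as values without a test. Of 67 other cell cycle genes 8 were highest with PFOA at 100 µM, against 18 with GW 4046, 11 with Pregnenolone 16alpha carbinonitrile and 5 with sulforaphane. The shares with PFOA (11.9%) and sulforaphane (7.46%) were near those of all tested probes, 10.8% and 6.77%. Those with GW 4046 (26.9%) and Pregnenolone 16alpha carbinonitrile (16.4%) stood against 2.27% and 2.34% of all tested probes. Cdkn1a, which encodes the CDK inhibitor p21, was at 56.8 CPM with PFOA at 100 µM, against 4.44 to 19.5 CPM in DMSO. In the same library the transcription factor E2f1 was at 12.2 CPM, against 1.06 to 4.52 CPM in DMSO, and Lin9, a subunit of the complex that switches mitotic genes, was at 45.1 CPM, against 8.88 to 21.2 CPM in DMSO. That library was the highest of all treated libraries for 10.8% of tested probes. With cyproconazole at 100 µM Myc was at 299.2 CPM, against 55.6 to 109.5 CPM in DMSO, Wee1 at 289.5 CPM, against 52.2 to 91.2 CPM, and Rb1 at 97.7 CPM, against 13.6 to 31.0 CPM. The cyproconazole library at 100 µM held only 1340300 counts, and 5.83% of all probes were called higher over the cyproconazole doses. For how many of all tested probes this library was the highest was not counted. The mitotic transcription factors Foxm1 and Mybl2, the inhibitors Cdkn1c, Cdkn2a and Cdkn2c, and Ccnd2 and E2f8 had a median of 0 CPM over all libraries. In the test of any trend, 45 of 67 other cell cycle genes were called, 67.2%, which is near the 67.5% of all probes. The smallest adjusted p by edgeR were those of Cdc25a (1.33e-11), Myc (9.02e-07), Wee1 (1.39e-06), Lin54 (1.99e-06), Rrm1 (2.10e-06) and Rb1 (2.39e-06). Genes named here by their levels were chosen after their values were seen.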
